A study of Mus musculus with 3 samples.

Results

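Septoclasts (SCs), the cells that resorb cartilage at the border between growth plate and bone, were picked out of 3 droplet single-cell RNA libraries of mouse long bone by the transcripts of *Sstr2*, *Cd55* and *Otos*. Each captured RNA molecule carries a unique molecular identifier (UMI), and a cell passed with at least 1 UMI of *Sstr2* and at least 3 UMIs of the 3 genes together. It could carry at most 1 UMI of the endothelial genes *Pecam1* and *Cdh5* together and at most 1 of the leukocyte genes *Laptm5* and *Tyrobp* together. Of 15628 kept cells, 174 passed: 10 of 2382 cells in metaphyseal replicate 1, 9 of 2004 in metaphyseal replicate 2 and 155 of 11242 in the *Pdgfra-GFP* library. The gated share was 0.420% in metaphyseal replicate 1 (95% exact binomial interval 0.201 to 0.771%), 0.449% in metaphyseal replicate 2 (0.206 to 0.851%) and 1.38% in the *Pdgfra-GFP* library (1.17 to 1.61%). These and all later intervals cover counting error only.

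In growing bone, blood vessels advance into mineralized cartilage and the transverse septa between dying hypertrophic chondrocytes are removed ahead of them. SCs are elongated mononuclear cells that sit beside the vessel tips at this front, carry fatty acid binding protein 5 (FABP5) and secrete matrix-degrading proteases. Osteoclasts, by contrast, are multinucleated cells of the haematopoietic lineage that resorb bone. *Sstr2* encodes a somatostatin receptor, *Cd55* a membrane inhibitor of complement, and *Otos* otospiralin, a small secreted protein known from the inner ear.

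All mice were untreated males of the C57BL/6 background aged 3 weeks. The metaphyseal libraries came from dissected metaphyses of C57BL/6J mice, from which lineage-positive, CD45+ and CD117+ cells had been depleted with magnetic beads. The *Pdgfra-GFP* library came from GFP+ cells sorted from the metaphysis and epiphysis of femur and tibia of *Pdgfra-H2B-GFP* heterozygous knock-in mice, in which the *Pdgfra* locus drives a stable nuclear GFP. The sources used here do not give the number of mice per library, so the tests measure the spread between 3 libraries, and genotype, dissected region, sort and library cannot be told apart where the *Pdgfra-GFP* library differs from the others. The libraries held 25243314, 22082735 and 91747759 UMIs, with a median of 6257, 6426 and 5330 UMIs per kept cell. The metaphyseal libraries are labelled as stromal cells, but 48.6% and 45.6% of their kept cells had at least 2 UMIs of *Pecam1* and *Cdh5*, against 2.94% in the *Pdgfra-GFP* library. Kept cells shared no barcode between the metaphyseal libraries, and shared 9 and 10 barcodes between each of them and the *Pdgfra-GFP* library. The size of the set of possible barcodes gives 0.703, 3.94 and 3.32 expected, and the reason for the higher counts was not tested.

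The gated cells were deeper than the rest. Their median was 10561, 9759 and 9171 UMIs in metaphyseal replicate 1, metaphyseal replicate 2 and the *Pdgfra-GFP* library (the order of all values below), against 6249, 6417 and 5275 in the other kept cells, and the part of depth in the differences below was not tested beyond the depth-matched comparison. Together the gated cells held 106975, 103904 and 1450171 UMIs, so the *Pdgfra-GFP* library carried most of the information on them. A doublet caller marked 1 of the 174 cells. It marked 1.05%, 0.848% and 1.38% of all kept cells, where 1.91%, 1.6% and 8.99% were expected, so unmarked doublets may remain. The reporter transcript *H2B_GFP* reached 350.3 CPM (the count of a transcript scaled to the summed UMIs of its population) in gated cells of the *Pdgfra-GFP* library, 93.8 CPM in its other cells, and was not counted in either of the metaphyseal libraries.

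The gate genes themselves stood as follows, as a description of the choice. *Sstr2* was at 336.5, 192.5 and 486.1 CPM in gated cells and at 0.840, 0.732 and 3.15 CPM in all other kept cells. *Cd55* was at 224.4, 211.7 and 278.6 CPM against 45.9, 40.4 and 14.1 CPM. *Otos* was at 9.35, 115.5 and 168.9 CPM against 0.683, 1.04 and 3.07 CPM, and only 1 of 10, 4 of 9 and 66 of 155 gated cells held any UMI of it. *Sstr2* and *Cd55* therefore admitted most cells. No UMI of somatostatin, cortistatin or the other somatostatin receptors (*Sst*, *Cort*, *Sstr1*, *Sstr3*, *Sstr4*, *Sstr5*) was counted in any gated cell.

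*Fabp5*, the usual marker of these cells, which the gate did not use, was higher in gated SCs of every library. The gate was chosen with earlier results of these data known, so this is not an independent check of it. Its level was 411.3, 375.3 and 2514 CPM in gated cells, 76.9, 83.1 and 97.7 CPM in all other kept cells, and 59.3, 39.9 and 76.7 CPM in a set of stromal cells chosen by *Kcnk2*. The ranges of gated and other cells did not overlap, and the *Pdgfra-GFP* library stood far above both metaphyseal libraries. Against all other kept cells the log2 fold change was 2.96 (SE 0.28, edgeR adjusted p = 2.14e-11), and against the *Kcnk2*-gated cells it was 3.71 (SE 0.36, adjusted p = 4.43e-07). Without the *Pdgfra-GFP* library the first difference was 2.05 with an adjusted p of 0.138, without the library block it was 3.60 with an adjusted p of 0.0563, and against depth-matched cells it was 2.54 with an adjusted p of 0.132. The second passed the threshold under every alternative tried. *Fabp5* lies at chr3:10012548-10016607 on the plus strand of GRCm38, and a near copy, *Fabp5l2*, is in the same annotation, so reads may be shared between them.

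*Fabp5* was uneven among the gated cells. A UMI of it was found in 8 of 10, 5 of 9 and 123 of 155 gated cells, against 3 of 18, 3 of 15 and 10 of 67 cells gated for red-cell genes at median depths of 12938, 12061 and 8801 UMIs. After thinning every cell to 2000 UMIs a UMI was left in 3 of 10, 1 of 9 and 86 of 155 gated SCs and in 1 of 18, 0 of 15 and 2 of 67 cells of the red-cell gate, where 0 of 15 cells allows a share of up to 21.8% by its exact interval. A single gated cell held 18 of the 44 *Fabp5* UMIs of metaphyseal replicate 1 and 26 of the 39 of metaphyseal replicate 2. The median gated cell held 154.5, 123.5 and 242.3 CPM, while the highest cell reached 2525, 2767 and 17600 CPM. The next highest population was the red-cell gate in metaphyseal replicate 1 (279.8 CPM, in 3 of its 18 cells), cells gated by *Lepr*, *Adipoq* and *Esm1* in metaphyseal replicate 2 (100.2 CPM) and leukocyte-gated cells in the *Pdgfra-GFP* library (246.5 CPM), as the plot of *Fabp5* by population shows.

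**Figure D1:**
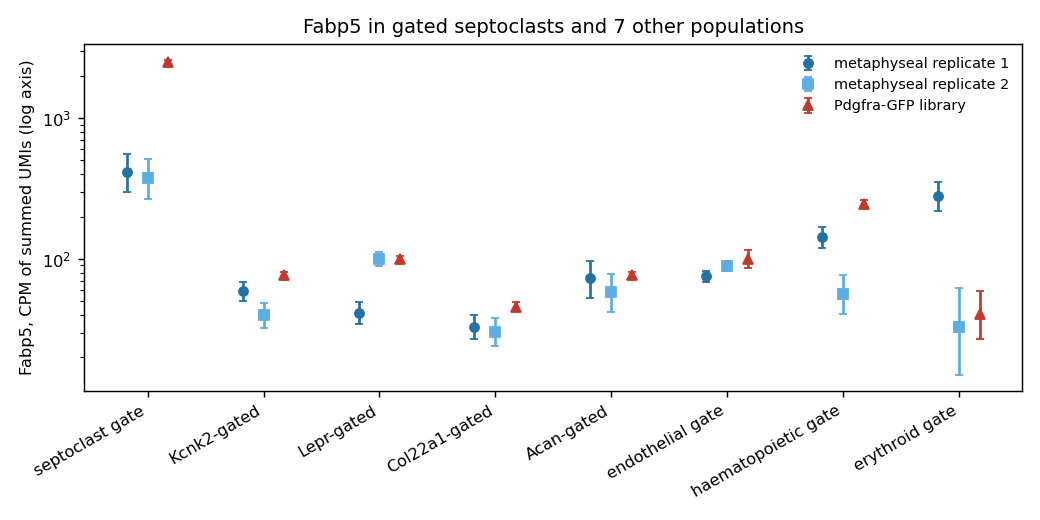
*Fabp5* in CPM of summed UMIs (log axis) in gated SCs and 7 other populations of each library, with exact Poisson 95% intervals. The gated SCs of the 3 libraries sit at 411.3, 375.3 and 2514 CPM, above all other populations of the same library.

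The edge of the gate fell within a continuum. In the *Pdgfra-GFP* library, cells with *Sstr2* and a gate sum of 2 UMIs (just outside, 60 cells) held 345.3 CPM of *Fabp5*, and cells with a sum of 3 (just inside, 37 cells) held 243.6 CPM. The level was 1293 CPM at a sum of 4 (16 cells), 1388 CPM at 5 to 9 (58 cells) and 5988 CPM at 10 or more (44 cells). These last 3 bands held 295.8, 705.9 and 482.5 CPM in metaphyseal replicate 1 (1, 4 and 2 cells). In metaphyseal replicate 2 they held 1164, 188.3 and 0.000 CPM (2, 5 and 1 cells). All 26 UMIs behind the first of these values came from 1 cell. The last is 1 cell, with an interval up to 378.0 CPM, so no trend is read there. Cells that reached a sum of 3 on *Cd55* and *Otos* without *Sstr2* numbered 5, 4 and 82 and held 438.4, 5319 and 302.5 CPM, which lay above the gated cells in the metaphyseal libraries and below them in the *Pdgfra-GFP* library, where it was still above the cells just inside the gate. The level of *Fabp5* thus did not step up at the threshold itself, and 37 of the 155 cells in the *Pdgfra-GFP* library sat on it.

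Other transcripts followed the gate sum within the *Pdgfra-GFP* library too, at a median depth of 8637, 8456 and 9730 UMIs in cells with 3 to 4, 5 to 9 and 10 or more gate UMIs. *Lrrn3*, a leucine-rich repeat membrane protein known from neurons, went from 5.93 to 56.7 to 146.7 CPM. *Ptch1*, the hedgehog receptor, went from 124.4 to 277.3 to 449.1 CPM. *Thy1*, a surface glycoprotein of stromal cells, neurons and T lymphocytes, went from 79.0 to 159.9 to 311.3 CPM. *Spp1*, which encodes osteopontin, ran the other way and stood at 38650, 18370 and 6188 CPM, and *Bglap*, osteocalcin, stood at 8971, 528.2 and 500.3 CPM. A single cell at the lowest gate sum held 4242 of the 5028 *Bglap* UMIs of all 155 cells, so the first *Bglap* value is mostly that cell. These bands come from 1 library and carry no test.

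**Figure D2:**
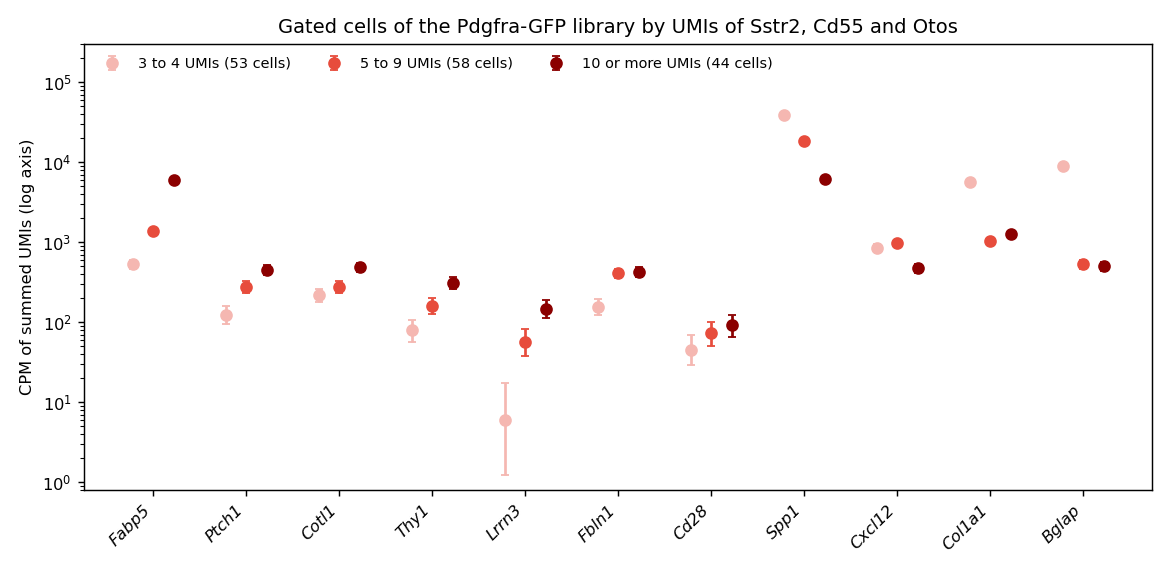
Level of 11 transcripts in CPM (log axis) in gated SCs of the *Pdgfra-GFP* library, split by their UMIs of *Sstr2*, *Cd55* and *Otos*, with exact Poisson 95% intervals. *Fabp5* stands at 527.3, 1388 and 5988 CPM in the 3 bands and *Spp1* at 38650, 18370 and 6188 CPM.

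Gated SCs were compared with all other kept cells on UMI counts summed per library, with the library as a block. Of 13505 genes tested, 352 (2.61%) were higher and 1157 (8.57%) were lower in gated SCs at an adjusted p under 0.05 in edgeR's quasi-likelihood framework (Benjamini-Hochberg). The 7 genes that define the gate are among those tested, and lower levels of endothelial and leukocyte genes follow in part from its limits. The number of calls depends on the *Pdgfra-GFP* library: with the 2 other libraries alone, no gene was higher and 6 were lower by the same test, with 1353 genes at an unadjusted p under 0.05. Without the library block 91 genes were higher and 256 lower. The median log2 fold change of all genes was -0.16 with TMM scaling and 0.07 with library totals alone, and all changes are to be read against that shift. The genes described next, other than proteases and Notch genes, are from the 15 highest and 10 lowest by log2 fold change that moved the same way in each library, so that gated cells lie on 1 side of the other cells by the choice of genes. A single UMI among the gated cells of a metaphyseal library already stands for 9.35 or 9.62 CPM.

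A first group of the higher genes is known mainly from lymphocytes and other blood cells. *Cd28*, a costimulatory receptor of T cells, was at 46.7, 125.1 and 69.0 CPM in gated SCs against 1.58, 3.78 and 3.71 CPM in the other cells (log2 fold change 4.33, SE 0.40, edgeR adjusted p = 5.88e-12). *Lat*, an adaptor of T cell receptor signalling, was at 9.35, 9.62 and 44.8 CPM against 0.998, 0.610 and 1.34 CPM (4.55, SE 0.51). The other cells alone would not have passed it through the filter on low counts, so its test is not read. Its metaphyseal values rest on 1 UMI each, while 38 of 155 gated cells of the *Pdgfra-GFP* library held a UMI. In that library *Lat* was at 54.2 CPM in gated cells with *Fabp5* and 0.000 CPM in those without. *Btla*, an inhibitory receptor of lymphocytes, was at 28.0, 9.62 and 34.5 CPM against 1.89, 2.07 and 2.22 CPM (3.54, SE 0.47, adjusted p = 1.46e-07). Its 3 UMIs in metaphyseal replicate 1 came from a single cell (10.0% of the gated cells). *Cysltr2*, a receptor for cysteinyl leukotrienes, was at 121.5, 19.3 and 44.1 CPM against 5.46, 5.67 and 5.42 CPM (3.07, SE 0.41, adjusted p = 1.69e-07).

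Other T cell genes were at or near 0 in gated SCs, but most were low in the other cells as well. Of 12 genes of T cells chosen after those values were seen (the *Cd3* chains, *Cd247*, *Cd2*, *Cd5*, *Cd4*, *Cd8a*, *Lck*, *Zap70*, *Trac* and *Ptprc*), 10 had no UMI in any gated cell, and *Zap70* and *Trac* had 3 UMIs between them. In the other cells *Ptprc*, the general leukocyte antigen, was at 13.3, 13.7 and 4.51 CPM, *Lck* at 6.25, 4.70 and 1.20 CPM and *Cd3e* at 0.105, 0.000 and 0.0135 CPM. The gate itself limited leukocyte transcripts, and the source of *Cd28*, *Lat* and *Btla* was not tested.

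*Thy1* and the chemokine *Ccl3* were also higher, with a wider spread. *Thy1* was at 74.8, 19.3 and 178.6 CPM against 2.31, 3.48 and 18.8 CPM (log2 fold change 3.29, SE 0.38, edgeR adjusted p = 5.07e-09), and its adjusted p was 0.114 without the library block. *Ccl3*, which attracts monocytes, was at 37.4, 19.3 and 97.9 CPM against 4.89, 2.38 and 8.98 CPM (3.08, SE 0.41, adjusted p = 1.24e-07). In the *Pdgfra-GFP* library 22 of 155 gated cells held *Ccl3*, and 1 cell held 69 of its 142 UMIs. Leukocyte-gated cells held 100.5, 42.7 and 148.4 CPM of it, which is above gated SCs of the same library in each case.

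A second group consists of genes best known from neurons and ciliated or polarized cells. *Lrrn3* had the largest fold change by this rule, at 46.7, 163.6 and 66.9 CPM against 2.47, 2.75 and 1.94 CPM (log2 fold change 4.94, SE 0.40, edgeR adjusted p = 1.12e-13). In metaphyseal replicate 2 a single cell held 15 of its 17 UMIs, whereas 41 of 155 cells carried it in the *Pdgfra-GFP* library. *Lgi1*, a secreted neuronal protein, was at 56.1, 9.62 and 31.7 CPM against 2.10, 1.95 and 1.92 CPM (3.80, SE 0.47, adjusted p = 1.82e-08). *Wdr72*, a vesicle trafficking protein needed for enamel formation, was at 121.5, 57.8 and 54.5 CPM against 3.47, 3.29 and 4.45 CPM (3.90, SE 0.40, adjusted p = 1.37e-10). It was detected in 7 of 10, 4 of 9 and 51 of 155 gated cells and in 2.32%, 2.46% and 2.52% of the others, at their lower depth. *Wdr63*, a protein of motile cilia, was at 28.0, 19.3 and 17.9 CPM against 1.05, 0.488 and 1.07 CPM (4.10, SE 0.54). It passed the filter on low counts through the gated cells alone, so its test is not read.

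Other higher genes were *Reps2*, *Arnt2*, *Adra2c* and *Fbln1*. *Reps2*, which acts in endocytosis of growth factor receptors, was at 149.6, 86.6 and 51.0 CPM against 6.51, 4.94 and 7.49 CPM (log2 fold change 3.35, SE 0.38, edgeR adjusted p = 2.19e-09). *Arnt2*, a partner of basic helix-loop-helix transcription factors, was at 56.1, 28.9 and 16.6 CPM against 1.47, 1.16 and 2.09 CPM (3.52, SE 0.53, adjusted p = 1.62e-06). Both were higher in the metaphyseal libraries than in the *Pdgfra-GFP* library. *Adra2c*, an adrenergic receptor, was at 28.0, 28.9 and 5.52 CPM in gated SCs, with a log2 fold change of 3.31 (SE 0.68). It passed the filter on low counts through the gated cells alone, so its test is not read. Its 3 UMIs in metaphyseal replicate 2 came from a single cell (11.1% of the gated cells). *Fbln1*, an extracellular matrix protein, was the most evenly spread, at 336.5, 375.3 and 324.8 CPM against 24.3, 21.5 and 63.9 CPM (3.08, SE 0.27, adjusted p = 9.84e-13), with a UMI in 8 of 10, 8 of 9 and 117 of 155 gated cells.

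**Figure D3:**
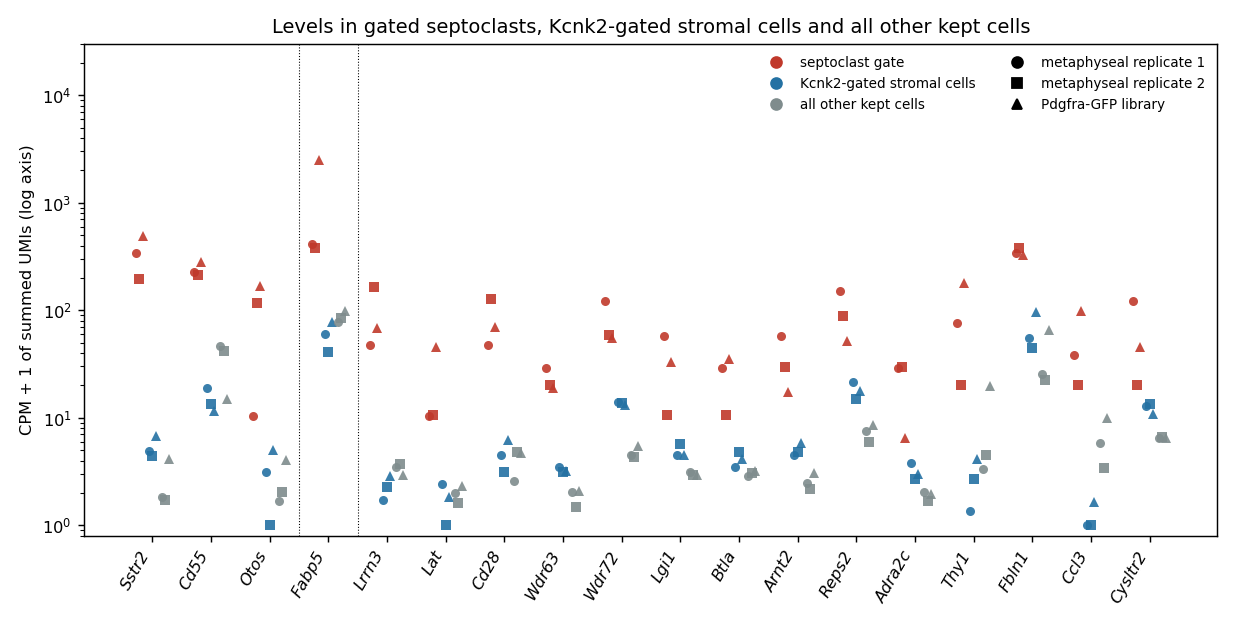
CPM + 1 of summed UMIs (log axis) of the gate genes, *Fabp5* and the higher genes named in the text in gated SCs (red), *Kcnk2*-gated stromal cells (blue) and all other kept cells (grey), with a marker shape per library. *Fbln1* lies between 324.8 and 375.3 CPM in gated SCs and between 21.5 and 63.9 CPM in the other cells.

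The 10 lowest genes had no UMI in any gated cell. Their bounds compare the UMIs that the gated cells of the 3 libraries would hold at the level of the other cells of the same library with a limit of 3 counts over all gated cells. *Stab1*, a scavenger receptor of sinusoidal endothelium, was at 211.1, 205.5 and 9.67 CPM in the others and at least 19.3-fold lower in gated SCs. *Stab2*, *Flt4*, *Adgrl4* and *Gja4*, which are endothelial genes, were at least 12-, 11-, 11.2- and 13.6-fold lower. *Igfbp2*, which binds insulin-like growth factors, was at least 12-fold lower, and the leukocyte genes *Alox5ap*, *Lcp1* and *Ighm* at least 16.4-, 12.1- and 12.3-fold lower. The last of the 10, *Ralgapa2*, a GTPase activating protein, was at least 8.78-fold lower. In all, 184 of the called genes were at 0 in gated SCs and passed the filter on low counts through the other cells alone. Neither their number nor their tests are read further. Without the library block the calls of *Stab1*, *Stab2*, *Igfbp2*, *Adgrl4*, *Flt4* and *Ralgapa2* were lost, and by DESeq2 that of *Alox5ap*.

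A narrower comparison set gated SCs against 287, 241 and 2324 stromal cells within the same endothelial and leukocyte limits that held at least 1 UMI of *Kcnk2* and at least 3 UMIs of *Kcnk2*, *Postn* and *Wif1* together. These are markers of metaphyseal stromal cells, but the cells so chosen also held 8782, 9385 and 7104 CPM of *Cxcl12*, a gene of diaphyseal marrow stroma, and are therefore named by their gate. Of 10205 genes tested, 273 (2.68%) were higher and 442 (4.33%) were lower in gated SCs by the same edgeR test. Without the *Pdgfra-GFP* library 52 were higher and 114 lower, and without the library block 137 and 219. The *Kcnk2*-gated sums come from the same libraries, and the gated SCs are those of the first comparison, so both comparisons share their cells.

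Several of the genes described above were higher here as well. *Ccl3* was at 0.000, 0.000 and 0.645 CPM in *Kcnk2*-gated cells, and its log2 fold change was 7.32 (SE 0.45). *Thy1* was at 0.351, 1.70 and 3.16 CPM in the comparison cells (5.74, SE 0.44), and *Lrrn3* at 0.702, 1.27 and 1.87 CPM (5.5, SE 0.36). *Lat* (5.31), *Cd28* (4.01), *Btla* (3.19), *Wdr63* (3.07) and *Lgi1* (3.06) were also among the 15 with the largest log2 fold change. All of these passed the filter on low counts through the gated SCs alone, so their tests are not read.

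Others of these 15 genes act in the cytoskeleton, at the surface and in protein turnover. *Gem*, a small GTPase that restrains calcium channels, was at 149.6, 28.9 and 58.6 CPM against 13.0, 12.3 and 2.71 CPM (log2 fold change 3.55, SE 0.40, edgeR adjusted p = 3.23e-06), with 14 of its 16 UMIs in metaphyseal replicate 1 in a single cell. *Iqgap2*, a scaffold of the cell cortex, was at 28.0, 9.62 and 29.7 CPM against 1.05, 2.97 and 1.48 CPM (3.96, SE 0.55). *Mcam*, the adhesion molecule CD146 of perivascular cells, was at 56.1, 38.5 and 33.8 CPM against 4.91, 4.67 and 4.25 CPM (3.03, SE 0.40). Both passed the filter on low counts through the gated SCs alone, so their tests are not read. Against all other kept cells, which held 116.0, 104.0 and 9.30 CPM of *Mcam*, its difference was 0.12 with an adjusted p of 0.942. *Tmem204*, a membrane protein, was at 28.0, 57.8 and 46.2 CPM against 5.26, 3.39 and 5.87 CPM (3.02, SE 0.37, adjusted p = 1.13e-05), and *Uchl1*, a ubiquitin hydrolase abundant in neurons, at 28.0, 77.0 and 44.1 CPM against 7.72, 4.67 and 5.35 CPM (2.98, SE 0.37, adjusted p = 1.13e-05).

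Genes lower than in *Kcnk2*-gated cells included secreted signals. *Cxcl14*, a chemokine, was at 28.0, 19.3 and 73.8 CPM against 889.5, 800.2 and 1031 CPM (log2 fold change -4.24, SE 0.28, edgeR adjusted p = 2.25e-09). *Bmp4*, a bone morphogenetic protein, was at 0.000, 9.62 and 2.07 CPM against 91.2, 110.3 and 45.5 CPM (-4.47, SE 0.48). *Pdgfd*, a ligand of PDGF receptor β, was at 0.000, 0.000 and 1.38 CPM against 31.2, 42.0 and 37.2 CPM (-4.93, SE 0.61). *Rspo2*, an activator of Wnt signalling, had no UMI in gated SCs and was at least 12.1-fold lower. *Ank3* and *Aldh1l2*, also without a UMI in gated SCs, were at least 5.61- and 4.73-fold lower. Genes without a UMI passed the filter on low counts through the comparison cells alone. *Bmp4* and *Pdgfd*, with 4 and 2 UMIs in gated SCs, would not have passed it through the gated cells alone. The tests of all these genes are not read. The call of *Rspo2* was lost by DESeq2, and those of *Ank3* and *Aldh1l2* without the library block. *Slc26a7*, an anion exchanger, *Gprin3*, *Dclk1* and the granzyme gene *Gzme* had log2 fold changes of -6.07, -4.95, -4.54 and -4.37. The *Cxcl14* difference was -1.15 with an adjusted p of 0.0572 when only comparison cells with *Cxcl12* below 1000 CPM were used.

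**Figure D4:**
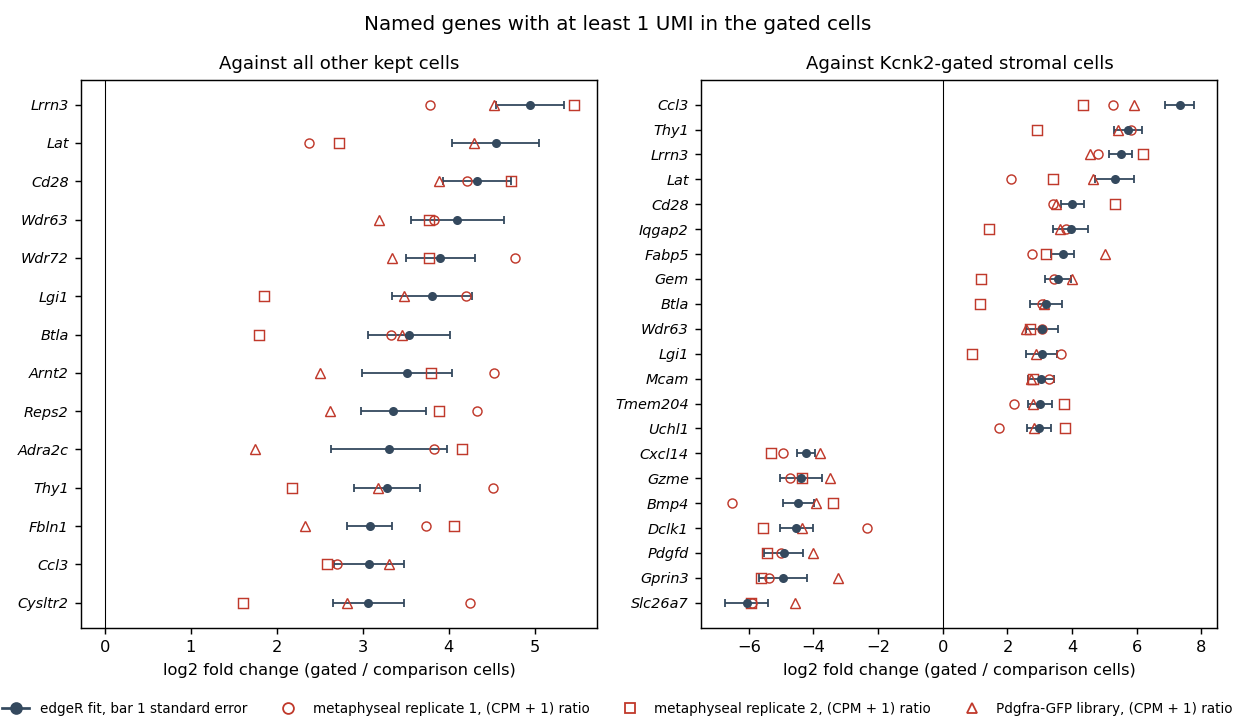
Log2 fold change (edgeR, bars 1 SE) of the genes named in the text with at least 1 UMI in gated SCs, against all other kept cells (left) and against *Kcnk2*-gated cells (right), with the ratio of CPM + 1 in each library as open markers. *Lrrn3* stands highest on the left at 4.94 and *Ccl3* on the right at 7.32, and the genes were chosen for the same direction in 3 libraries.

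Lists of genes by role were then counted in both comparisons, beside the median log2 fold change of all genes, which was -0.16 against all other kept cells and -0.05 against *Kcnk2*-gated cells. The lists were chosen with earlier results of these data known and are given as counts and medians without a test of the list. Over all genes tested, 2.61% were higher and 8.57% lower than in all other kept cells. Against *Kcnk2*-gated cells 2.68% of all genes were higher and 4.33% lower, and each count is to be set beside these shares. Genes shown are mostly the most changed of a list, so ranges that do not overlap follow in part from that choice. Of 42 called genes described below against all other kept cells, 40 were not called without the *Pdgfra-GFP* library (all but *Col1a1* and *Col2a1*), although all 42 kept their direction there and 36 had a log2 fold change at least as large. Of the 42, 17 were not called without the library block, namely *Pdgfra*, *Itga6*, *Map1b*, *Tubb6*, *Spp1*, *Alpl*, *Runx2*, *Col2a1*, *Vcan*, *Dcn*, *Pgf*, *Rbp4*, *Cd63*, *Ddit3*, *Cspg4*, *Acta2* and *Postn*. Of the 37 that could be tested against depth-matched cells, 11 were not called, namely *Pdgfra*, *Tubb6*, *Alpl*, *Runx2*, *Vegfc*, *Dhrs3*, *Cd63*, *Ddit3*, *Cspg4*, *Acta2* and *Postn*. Of 16 described against *Kcnk2*-gated cells, 8 were not called without the *Pdgfra-GFP* library and 4 without the block (*Spp1*, *Sdc2*, *Nr4a1* and *Ier2*). The choice of comparison cells mattered too, since 4 were not called against cells with a UMI of *Pdgfra* or *Pdgfrb* (*Hbegf*, *Angpt2*, *Fabp4* and *Ier2*), and 5 of 15 were not called with comparison cells of low *Cxcl12* (*Gli1*, *Spp1*, *Fst*, *Nr4a1* and *Ier2*). *Fabp4* alone changed direction in these fits.

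Among hedgehog and parathyroid hormone receptors and targets, 2 of 13 genes were higher and 3 lower than in all other cells, and 2 of 9 were higher and 1 lower than in *Kcnk2*-gated cells. The higher genes were *Ptch1* and *Gli1*, both receptors or effectors that hedgehog signalling itself induces. *Ptch1* was at 327.2, 192.5 and 277.2 CPM in gated SCs, 42.6, 45.01 and 46.9 CPM in the other cells and 51.6, 47.1 and 41.6 CPM in *Kcnk2*-gated cells. The groups did not overlap, and the log2 fold changes were 2.32 (SE 0.25, edgeR adjusted p = 3.23e-10) and 2.44 (SE 0.22, adjusted p = 2.52e-07). *Gli1*, a transcription factor of the pathway, was at 18.7, 28.9 and 21.4 CPM against 2.36, 2.26 and 4.79 CPM (2.25, SE 0.49, adjusted p = 0.000663) and 3.16, 2.97 and 6.70 CPM (1.96, SE 0.48). The *Kcnk2*-gated cells alone would not have passed *Gli1* through the filter on low counts, so its second test is not read. *Ihh*, the ligand made by prehypertrophic chondrocytes, was at 0.000, 0.000 and 0.690 CPM in gated SCs and 4.89, 5.86 and 24.6 CPM in the other cells, and *Shh* and *Dhh* had no UMI in gated SCs. *Ptch1* lies at chr13:63508328-63573598 on the minus strand of GRCm38.

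Growth factor receptors differed from each other. Of the EGF family, 1 of 5 genes was higher and 0 lower against all other cells, and 2 of 3 were higher against *Kcnk2*-gated cells. *Egfr*, the receptor, was at 177.6, 134.7 and 104.1 CPM against 33.2, 32.6 and 27.9 CPM in the other cells (log2 fold change 1.85, SE 0.28, edgeR adjusted p = 1.32e-06). *Hbegf*, a membrane-bound ligand of it, was at 18.7, 19.3 and 40.7 CPM against 5.61, 2.97 and 6.12 CPM in *Kcnk2*-gated cells (2.56, SE 0.41, adjusted p = 0.000223), and the difference was 0.94 (adjusted p = 0.0566) against cells with *Pdgfra* or *Pdgfrb*. Of the PDGF family, *Pdgfrb* was higher than in all other cells (495.4, 539.0 and 425.5 CPM against 183.2, 204.6 and 174.2 CPM, log2 fold change 1.13, SE 0.20, adjusted p = 3.03e-05) while *Pdgfra*, the gene whose locus drives the reporter, was lower (28.0, 48.1 and 34.5 CPM against 81.3, 94.2 and 47.8 CPM, -0.99, SE 0.31, adjusted p = 0.0281). The *Pdgfra* call was lost under 9 of 13 alternatives, with adjusted p from 0.0535 with no filter to 0.566 with depth-matched cells. In all, 1 of 6 PDGF genes was higher and 3 lower, and against *Kcnk2*-gated cells 0 of 5 were higher and 2 lower.

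Integrins, which join cells to matrix, showed 5 of 16 genes higher and 2 lower against all other cells, and 3 of 11 higher and 1 lower against *Kcnk2*-gated cells. *Itgb5* was at 196.3, 144.4 and 158.6 CPM against 32.8, 28.9 and 45.8 CPM in the other cells (log2 fold change 1.92, SE 0.27, edgeR adjusted p = 3.34e-07). *Itgb3*, a subunit of the osteopontin and vitronectin receptor that osteoclasts also use, was at 18.7, 48.1 and 39.3 CPM against 7.98, 7.56 and 6.69 CPM (2.16, SE 0.41, adjusted p = 0.000129), and their common partner *Itgav* was at 158.9, 202.1 and 133.8 CPM against 62.3, 63.2 and 52.5 CPM (1.21, SE 0.25, adjusted p = 0.000388). The groups did not overlap for any of these 3 subunits, which were shown because they were called, so this adds nothing to the calls. *Itgb8* had no UMI in metaphyseal replicate 1 and was higher in 2 of 3 libraries (2.95, SE 0.55, adjusted p = 9.31e-05). *Itga6*, a laminin receptor subunit of endothelium, was at 0.000, 0.000 and 1.38 CPM against 80.8, 83.6 and 7.72 CPM (-4.08, SE 0.67). The gated cells alone would not have passed *Itga6* through the filter on low counts, so its test is not read.

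In the cytoskeleton list 11 of 48 actin, myosin and adhesion genes were higher and 1 lower than in *Kcnk2*-gated cells. Against all other cells 5 of 49 were higher and 4 lower. The list medians were 0.40 and 0.27, where those of all genes were -0.05 and -0.16. The difference between the comparisons was not tested. *Capg*, which caps actin filaments, was at 121.5, 115.5 and 119.3 CPM against 14.0, 8.91 and 35.1 CPM in *Kcnk2*-gated cells (log2 fold change 2.37, SE 0.32, edgeR adjusted p = 2.97e-05). *Cotl1*, an actin-binding protein, was at 196.3, 182.9 and 320.0 CPM against 36.1, 35.6 and 63.0 CPM (2.28, SE 0.21, adjusted p = 2.97e-07). Of 13 microtubule genes 5 were higher and 0 lower in both comparisons. *Map1b*, a microtubule stabilizer, was at 177.6, 365.7 and 137.9 CPM against 74.5, 67.0 and 27.4 CPM in all other cells (1.84, SE 0.25, adjusted p = 2.60e-07) and *Tubb6* at 84.1, 192.5 and 192.4 CPM against 45.5, 40.0 and 63.3 CPM (1.40, SE 0.27, adjusted p = 0.00013).

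**Figure D5:**
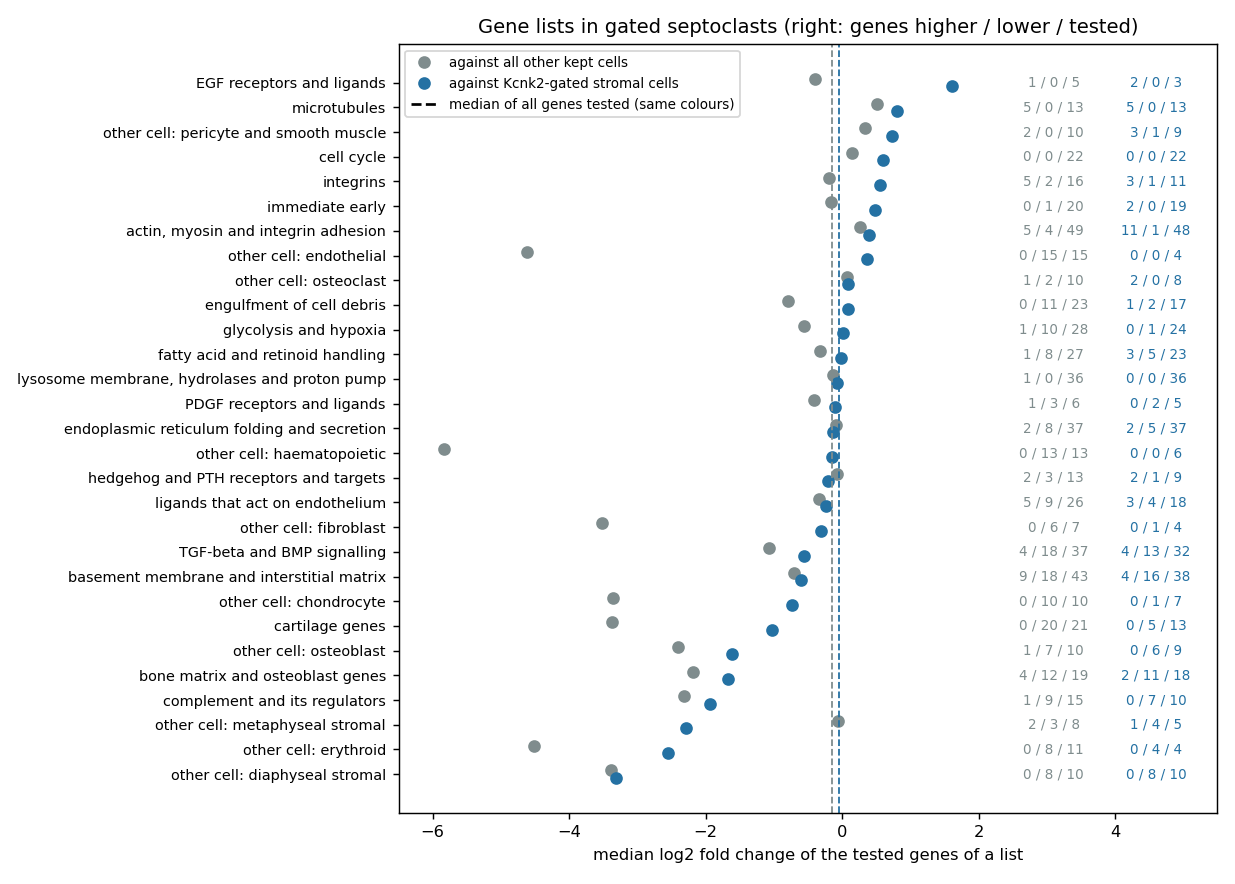
Median log2 fold change of the tested genes of each list in gated SCs against all other kept cells (grey) and against *Kcnk2*-gated cells (blue), with the numbers of genes higher, lower and tested at the right and the medians of all genes as dashed lines. The diaphyseal stromal list lies at -3.38 and -3.32 and the microtubule list at 0.52 and 0.80.

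Bone matrix genes were mostly lower, with a few exceptions. Of 19 genes of bone matrix and osteoblasts 4 were higher and 12 lower than in all other cells, and of 18 genes 2 were higher and 11 lower than in *Kcnk2*-gated cells, with medians of -2.19 and -1.68. *Spp1* was among the most abundant transcripts of gated SCs, with 2.89%, 1.84% and 2.17% of their UMIs. It was at 28930, 18390 and 21670 CPM against 4769, 4436 and 7859 CPM in the other cells (log2 fold change 1.80, SE 0.13, edgeR adjusted p = 6.60e-15) and 13000, 7892 and 14430 CPM in *Kcnk2*-gated cells (0.84, SE 0.17, adjusted p = 0.00213). The second difference was 0.37 (adjusted p = 0.507) with a gate of at least 5 UMIs and 0.23 (adjusted p = 0.81) with comparison cells of low *Cxcl12*, and the *Pdgfra-GFP* cells with 10 or more gate UMIs, at 6188 CPM, lay below both sets of comparison cells of that library. *Alpl*, the alkaline phosphatase of mineralizing cells, was at 1112, 1617 and 825.4 CPM against 325.5, 324.6 and 567.3 CPM (1.29, SE 0.21, adjusted p = 6.65e-06), and *Runx2*, the transcription factor of the osteoblast lineage, rose by 0.79 (SE 0.24, adjusted p = 0.0198), a call lost under 8 of 13 alternatives. *Col1a1*, the main bone collagen, was at 1542, 1338 and 2738 CPM against 23530, 24210 and 29670 CPM (-4.08, SE 0.13, adjusted p = 1.26e-27). Against *Kcnk2*-gated cells *Alpl* was not called higher. The range of gated cells lay wholly above all other kept cells for *Spp1* and *Alpl* and wholly below for *Col1a1*. These 3 genes were shown because they were called, so this adds nothing to the calls.

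Nearly all cartilage genes were lower than in all other cells, and fewer than in *Kcnk2*-gated cells. Against all other cells 20 of 21 were lower and 0 higher, with a median of -3.38, and against *Kcnk2*-gated cells 5 of 13 were lower and 0 higher, with a median of -1.02. *Col2a1*, the cartilage collagen, was at 9.35, 19.3 and 1618 CPM in gated SCs and at 1263, 2185 and 10860 CPM in the other cells (log2 fold change -4.28, SE 0.30, edgeR adjusted p = 1.36e-15). The red-cell gate of the *Pdgfra-GFP* library held 1572 CPM of *Col2a1*, close to its gated SCs, and 3 gated cells held 4.35%, 2.34% and 3.86% of their own UMIs in *Col2a1*. The part of free RNA in the level of 1618 CPM was not tested. *Col10a1*, the collagen of hypertrophic chondrocytes, was at 9.35, 48.1 and 42.1 CPM against 538.9, 642.9 and 286.3 CPM (-3.59, SE 0.28, adjusted p = 5.30e-14).

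Matrix around vessels and stroma was divided. Of 43 genes of basement membrane and interstitial matrix 9 were higher and 18 lower than in all other cells, and of 38 genes 4 were higher and 16 lower than in *Kcnk2*-gated cells, where *Fbln1* (log2 fold change 2.27, SE 0.22, edgeR adjusted p = 4.95e-07) and *Sdc2* (0.93, SE 0.17, adjusted p = 0.00109) rose. *Sdc2*, the proteoglycan syndecan, was at 878.7, 933.6 and 989.5 CPM against 186.6, 181.6 and 288.2 CPM in all other cells (1.87, SE 0.19, adjusted p = 6.33e-11). *Vcan*, versican, was at 224.4, 798.8 and 235.1 CPM against 50.7, 43.7 and 100.3 CPM (2.24, SE 0.31, adjusted p = 2.40e-07). Lower genes included *Fbln5*, a protein of elastic fibres, at 74.8, 144.4 and 51.7 CPM against 364.6, 396.9 and 314.9 CPM (-2.44, SE 0.25, adjusted p = 1.73e-10), and *Dcn*, decorin, at 112.2, 28.9 and 506.1 CPM against 907.8, 1035 and 3499 CPM (-3.46, SE 0.23, adjusted p = 1.84e-16). Members of 1 family thus differed in direction, *Fbln1* rising and *Fbln2* (-3.16, SE 0.61, adjusted p = 0.000129) and *Fbln5* falling against all other cells.

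Signals to other cells included genes higher and lower than in the comparison cells, where 2.61% of all genes tested were higher and 8.57% lower than in all other cells. Of 37 TGF-β and BMP genes 4 were higher and 18 lower than in all other cells, and of 32 genes 4 were higher and 13 lower than in *Kcnk2*-gated cells. *Tgfb3* was at 102.8, 202.1 and 95.2 CPM against 18.2, 18.7 and 34.0 CPM in all other cells (log2 fold change 2.06, SE 0.32, edgeR adjusted p = 2.61e-06), and *Inhba*, the activin subunit, at 74.8, 38.5 and 33.1 CPM against 9.47, 7.64 and 9.35 CPM in *Kcnk2*-gated cells (2.07, SE 0.34, adjusted p = 0.0003). *Fst*, which binds activin, was at 18.7, 0.000 and 15.9 CPM against 205.5, 193.1 and 155.9 CPM in *Kcnk2*-gated cells (-3.54, SE 0.32, adjusted p = 2.52e-07). *Chrdl1*, which binds BMPs, was at 0.000, 0.000 and 9.65 CPM against 108.4, 121.3 and 55.9 CPM (-3.08, SE 0.42). The gated cells alone would not have passed *Chrdl1* through the filter on low counts, so its test is not read. The activin subunit and the activin-binding protein thus differed in direction, but with comparison cells of low *Cxcl12* the *Fst* difference was -0.77 with an adjusted p of 0.384.

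Of 26 ligands that act on endothelium 5 were higher and 9 lower than in all other cells, and of 18 ligands 3 were higher and 4 lower than in *Kcnk2*-gated cells. *Pgf*, placental growth factor, was at 187.0, 115.5 and 216.5 CPM against 47.6, 46.8 and 63.9 CPM in the other cells (log2 fold change 1.48, SE 0.26, edgeR adjusted p = 2.64e-05) and *Slit2*, a guidance cue, at 140.2, 173.2 and 80.7 CPM against 33.8, 33.3 and 31.0 CPM (1.60, SE 0.28, adjusted p = 3.43e-05). *Angpt2*, a ligand of the endothelial receptor TIE2, was at 93.5, 28.9 and 39.3 CPM against 19.3, 14.9 and 12.6 CPM in *Kcnk2*-gated cells (1.65, SE 0.31, adjusted p = 0.00103), and its difference was 0.42 (adjusted p = 0.515) against cells with *Pdgfra* or *Pdgfrb*. *Cxcl12*, a chemokine of marrow stroma, was at 560.9, 308.0 and 777.1 CPM against 5620, 6086 and 6141 CPM in the other cells (-3.71, SE 0.18, adjusted p = 1.50e-21), and the red-cell gate held 761.2, 760.9 and 1482 CPM of it. *Cxcl12* in gated SCs was thus below the level in that gate in every library. *Vegfc*, a lymphatic and vascular growth factor, fell by 1.56 on the log2 scale (SE 0.30, adjusted p = 0.000149). Against depth-matched cells its log2 fold change was -0.895 with an edgeR adjusted p of 0.169.

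Most complement genes were lower. Of 15 genes 1 was higher and 9 were lower than in all other cells, with a median of -2.31, and of 10 genes 0 were higher and 7 lower than in *Kcnk2*-gated cells, with a median of -1.94; *Cd55*, a gate gene, is not counted. *Serping1*, the inhibitor of the first complement component, was at 18.7, 9.62 and 74.5 CPM against 440.5, 493.2 and 780.3 CPM in the other cells (log2 fold change -4.02, SE 0.28, edgeR adjusted p = 7.22e-16).

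In fatty acid and retinoid handling, *Fabp5* not counted, 1 of 27 genes was higher and 8 lower than in all other cells, and 3 of 23 were higher and 5 lower than in *Kcnk2*-gated cells. The shares over all genes were 2.61% and 8.57%, then 2.68% and 4.33%, so 1 of 27 higher is near its share. *Aldh1a3*, an enzyme that makes retinoic acid, was at 65.4, 115.5 and 89.0 CPM against 8.67, 3.90 and 14.3 CPM in the other cells (log2 fold change 3.00, SE 0.38, edgeR adjusted p = 3.27e-08) and rose by 2.48 against *Kcnk2*-gated cells (SE 0.33, adjusted p = 2.83e-05). *Rbp4*, the serum retinol carrier, was at 0.000, 9.62 and 42.8 CPM against 74.5, 69.1 and 213.9 CPM (-2.74, SE 0.35, adjusted p = 5.62e-08), and *Dhrs3*, a retinaldehyde reductase, fell by 2.52 on the log2 scale (SE 0.37, adjusted p = 1.32e-06). *Fabp4*, a relative of *Fabp5* found in fat and endothelium, was lower than in all other cells (-3.35, SE 0.28, adjusted p = 2.77e-13) and higher than in *Kcnk2*-gated cells (271.1, 28.9 and 77.2 CPM against 16.5, 19.5 and 17.5 CPM, 2.44, SE 0.38, adjusted p = 0.000134), but its log2 fold change was -0.52 with an adjusted p of 0.229 against comparison cells with a UMI of *Pdgfra* or *Pdgfrb*. In metaphyseal replicate 1 a single gated cell held 25 of its 29 *Fabp4* UMIs.

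In the lysosomal list the share of higher genes was near that of all genes tested. Of 36 lysosomal genes 1 was higher and 0 lower than in all other cells, where 2.61% of all genes were higher and 8.57% lower. The higher gene was *Cd63*, a lysosomal and exosomal membrane protein, at 3178, 2714 and 3716 CPM against 1546, 1433 and 2782 CPM (log2 fold change 0.55, SE 0.15, edgeR adjusted p = 0.00612). That call was lost under 7 of 13 alternatives. No lysosomal gene passed against *Kcnk2*-gated cells, where 2.68% of all genes were higher and 4.33% lower. Of 37 genes of the endoplasmic reticulum 2 were higher in each comparison, *Sec11c*, a subunit of signal peptidase (1.44, SE 0.22, adjusted p = 3.43e-06 against all other cells), and *Ddit3*, the stress transcription factor CHOP (1.78, SE 0.34, adjusted p = 0.000108), with 8 and 5 lower. A single cell held 27 of the 48 *Ddit3* UMIs of metaphyseal replicate 2, and without that library the log2 fold change was 0.90 with an adjusted p of 0.103. Of 23 genes of debris engulfment 0 were higher and 11 lower than in all other cells, among them *Gas6*, which bridges dying cells to phagocytic receptors, at 299.1, 202.1 and 192.4 CPM against 759.0, 804.7 and 659.7 CPM (-1.94, SE 0.20, adjusted p = 1.86e-10). The 11 lower genes include *Stab1* and *Stab2*, endothelial genes without a UMI in gated SCs, whose low level follows in part from the gate. Of 17 engulfment genes 1 was higher and 2 lower than in *Kcnk2*-gated cells.

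For metabolism and proliferation, 1 of 28 glycolysis and hypoxia genes was higher and 10 lower than in all other cells, and 0 of 24 were higher and 1 lower than in *Kcnk2*-gated cells. The shares over all genes were 2.61% and 8.57%, then 2.68% and 4.33%. The 1 of 28 higher and the 1 of 24 lower are near those shares. No cell cycle gene of 22 passed the test in either direction, with medians of 0.14 and 0.60. Their summed level was 785.2, 3205 and 2125 CPM in gated SCs and 1363, 962.7 and 1776 CPM in *Kcnk2*-gated cells, so the libraries of gated SCs differed widely. Of the immediate early genes, which cell dissociation can induce, 0 of 20 were higher and 1 lower than in all other cells. Against *Kcnk2*-gated cells 2 of 19 were higher and 0 lower, namely *Nr4a1* (log2 fold change 1.37, SE 0.31, edgeR adjusted p = 0.00578) and *Ier2* (0.91, SE 0.22, adjusted p = 0.00967).

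Markers of other cell types were counted in the same way. Of the endothelial, haematopoietic and red-cell lists 15 of 15, 13 of 13 and 8 of 11 genes were lower than in all other cells and 0 were higher, in part through the gate. Their summed levels in gated SCs were 168.3, 67.4 and 80.7 CPM for endothelium (the most abundant being *Eng*), 102.8, 67.4 and 197.9 CPM for blood cells (*Fcer1g*) and 121.5, 48.1 and 523.4 CPM for red cells (*Hbb-bs*). Against *Kcnk2*-gated cells none of 4 endothelial and 6 haematopoietic genes passed, and 4 of 4 red-cell genes were lower. The defining genes *Sox17*, *Ptprc*, *Cd79a*, *Alas2*, *Rhag* and *Car1* had no UMI in gated SCs. Of the osteoclast list, 1 of 10 genes was higher (*Itgb3*) and 2 lower than in all other cells, and 2 of 8 were higher than in *Kcnk2*-gated cells (*Car2* and *Itgb3*). *Acp5*, the acid phosphatase of osteoclasts, was at 9.35, 0.000 and 8.28 CPM against 15.2, 7.75 and 81.3 CPM, and *Calcr*, *Oscar*, *Dcstamp* and *Ocstamp* had no UMI.

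Pericyte and smooth muscle genes moved upward in part. Of 10 genes 2 were higher and 0 lower than in all other cells, namely *Cspg4*, the proteoglycan NG2 (121.5, 77.0 and 89.0 CPM against 18.8, 20.7 and 50.1 CPM, log2 fold change 1.30, SE 0.33, edgeR adjusted p = 0.00413), and *Acta2*, smooth muscle actin (93.5, 134.7 and 117.2 CPM against 33.4, 30.6 and 55.1 CPM, 1.22, SE 0.29, adjusted p = 0.00177). Against depth-matched cells the *Acta2* difference was 0.58 with an edgeR adjusted p of 0.562. Of 9 genes of the list 3 were higher and 1 lower than in *Kcnk2*-gated cells. *Rgs5*, a pericyte gene, was at 532.8, 0.000 and 54.5 CPM in gated SCs, and a single cell held all 57 UMIs of metaphyseal replicate 1 and another 44 of the 79 UMIs of the *Pdgfra-GFP* library. These 2 cells also held 199 and 293 UMIs of *Mmp9*. The summed level of the list was 1309, 818.1 and 710.3 CPM with *Myl9* the most abundant, and *Myh11*, *Cnn1* and *Higd1b* had no UMI.

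Stromal and skeletal markers were counted last. Of 10 diaphyseal stromal genes 8 were lower and 0 higher in both comparisons, with summed levels of 1888, 1675 and 2598 CPM in gated SCs against 12400, 13210 and 12910 CPM in the other cells. *Adipoq* was at 9.35, 0.000 and 90.3 CPM against 650.1, 694.1 and 1315 CPM (log2 fold change -4.65, SE 0.29, edgeR adjusted p = 4.49e-17). Of the osteoblast list 1 of 10 genes was higher (*Alpl*) and 7 lower than in all other cells, and 0 of 9 were higher and 6 lower than in *Kcnk2*-gated cells, with summed levels of 3262, 4783 and 8883 CPM. Of the chondrocyte list 10 of 10 genes were lower than in all other cells, but only 1 of 7 lower than in *Kcnk2*-gated cells, and of the fibroblast list 6 of 7 and then 1 of 4. Metaphyseal stromal genes had 2 of 8 higher and 3 lower, then 1 of 5 higher and 4 lower, the protease gene *Mmp13* being higher in both and *Postn*, which encodes the matrix protein periostin and is described only in the second as a gene of that gate, in the first (280.4, 317.6 and 126.2 CPM against 47.1, 41.5 and 124.3 CPM, log2 fold change 1.45, SE 0.33, edgeR adjusted p = 0.00112). Against depth-matched cells the *Postn* difference was 0.53 with an edgeR adjusted p of 0.563. Summed levels of the metaphyseal stromal list were 13760, 10310 and 12210 CPM in gated SCs, most of it *Mmp13*.

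Leaving out the 6 gated cells that were rich in *Bglap*, *Col2a1* or *Rgs5* (1 in metaphyseal replicate 1 and 5 in the *Pdgfra-GFP* library) gave 1645 called genes against all other kept cells, of which 1473 were shared with the 1509 called over all 174 cells. Against *Kcnk2*-gated cells it gave 788, of which 698 were shared with 715. Every gene named by fold change kept its call, while of the genes described from the lists *Pdgfra* lost it (log2 fold change -0.86, adjusted p = 0.0618).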

How the data were processed

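Read trimming (fastp) and alignment with STARsolo to mm10 (Gencode M23, H2B-GFP added) were done by the authors, whose deposited matrices hold UMI counts, not normalized and not filtered for cells. Later steps were done here. Cells needed at least 1500 genes (metaphyseal) or 1000 genes (*Pdgfra-GFP*), at most 15% mitochondrial and 30% ribosomal UMIs. The gate, the members and the gene lists were chosen with earlier results of these data known.

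The UMIs of each population were added up within its library and tested with edgeR 4.0.16 in R 4.3.3 (filterByExpr, TMM, quasi-likelihood test, Benjamini-Hochberg over all genes tested, threshold 0.05), with the library as a block, since both sums of a library come from the same suspension. Deviations of the paired sums correlated across genes with r of 0.155, 0.162 and 0.393 (all other cells) and 0.150, 0.115 and 0.479 (*Kcnk2* gate). Named genes were those past the threshold, moving the same way in 3 libraries, outside the gates, neither protease nor Notch genes, with a mean of at least 20 CPM where higher: the 15 highest and 10 lowest. Lists are shown with their most changed members of at least 20 CPM and those the list's name turns on. Intervals are exact Poisson or binomial at 95%. Scrublet (scanpy 1.11.5) marked doublets, which stayed in. Alternatives used DESeq2 1.42.0, other size factors, no filter, no block, each library left out, stricter gates, depth-matched cells (5 nearest per gated cell) and other comparison cells. 4 alternatives were chosen after seeing the data: library totals alone, leaving out cells rich in another type's gene, comparison cells with low *Cxcl12*, and a term for the *Pdgfra-GFP* library. Gene positions are from Gencode M21 (GRCm38). Some genes that met these rules are not reported here.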

Additional observations from a re-analysis of the deposited data

Results flagged for a closer look

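The difference between gated SCs and *Kcnk2*-gated cells was itself compared between the *Pdgfra-GFP* library and the metaphyseal libraries, with an added term in the edgeR fit. The *Pdgfra-GFP* arm is 1 library without a replicate, so the spread between libraries comes from the pair of metaphyseal libraries alone, with 1 residual degree of freedom, and the *Pdgfra-GFP* library is assumed to vary like them. The p-values below say nothing of how far a second *Pdgfra-GFP* library would differ, and no difference between the preparations is drawn from them. The term passed for 36 of 10205 genes (443 at an unadjusted p under 0.05), of which 20 are named here because they are genes of the lists or named genes. Without the 6 gated cells rich in *Bglap*, *Col2a1* or *Rgs5*, 48 genes passed and 28 were shared. The same term against all other kept cells passed for 0 genes (524 at an unadjusted p under 0.05) with all gated cells and for 163 without those 6 cells, so the number of calls changed with 6 cells.

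For *Fabp5*, the log2 ratio to *Kcnk2*-gated cells was 2.77 and 3.20 in the metaphyseal libraries and 5.02 in the *Pdgfra-GFP* library (difference 2.30, SE 0.30, edgeR adjusted p = 0.000169, and 2.29 without the 6 cells). *Atf3*, a stress gene, differed by 4.94 (SE 0.86, adjusted p = 0.0051) and *Fos* by 1.40 (SE 0.28, adjusted p = 0.01642, and 0.0612 without the 6 cells).

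Some bone matrix genes are named here because the term passed for them, and the rest of their list is not shown. For those named, the ratio to the comparison cells was nearer to 1 in the single *Pdgfra-GFP* library than in the metaphyseal libraries. The differences were 5.53 for *Bglap* (adjusted p = 5.24e-08), 4.44 for *Bglap2* (5.82e-07), 2.66 for *Col1a1* (4.28e-08), 2.37 for *Col1a2* (1.48e-07), 1.54 for *Sparc* (9.26e-05), 5.44 for *Ifitm5* (0.00086) and 3.77 for *Smpd3* (0.01212). Without the 6 cells the differences were 2.81 for *Bglap* and 1.98 for *Bglap2*, and *Sparc* no longer passed (0.66, adjusted p = 0.641). The red-cell gate held 5501 CPM of *Bglap* in the *Pdgfra-GFP* library and 7.46 and 18.3 CPM in the metaphyseal libraries, and 5297, 78.4 and 95.1 CPM of *Col1a1*. The part of free RNA in these differences was not tested.

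Other genes were *Col11a2* (difference 5.81, adjusted p = 0.000133), *Col11a1* (1.59, 0.03702), *Adipoq* (4.56, 0.00456), *Cxcl12* (1.47, 0.01427), *Hp* (3.05, 5.84e-05), *Hbb-bs* (3.22, 0.00126), *Dcn* (2.13, 0.01706) and *Grem1* (4.79, 0.01224), with a higher ratio in the single *Pdgfra-GFP* library. *Col3a1* (-1.51, adjusted p = 0.01642) and *Aspn* (-5.23, 0.02185) had a lower ratio there. Without the 6 cells *Col11a1*, *Dcn*, *Grem1*, *Col3a1* and *Aspn* no longer passed, and the *Aspn* estimate changed sign, to 4.48 with an SE of 7.90.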

How the results depend on the processing

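Against all other kept cells, 352 genes were higher and 1157 lower. DESeq2 called 202 and 490, the fit with no replicate block 91 and 256, and depth-matched comparison cells 133 and 183 of only 6291 genes tested. Library totals alone gave 1477 called genes, of which 551 were higher. Leaving out each library in turn gave 0 to 342 higher and 6 to 873 lower, the lowest without the *Pdgfra-GFP* library. Against *Kcnk2*-gated cells, 273 were higher and 442 lower. DESeq2 called 178 and 212, no block 137 and 219, comparison cells with *Pdgfra* or *Pdgfrb* 477 and 875, and no filter on low counts 738 lower. Comparison cells with low *Cxcl12* gave 854 called genes of 8832 tested, and 379 of them were among the 715 called in the main fit. Leaving out each library gave 52 to 377 higher and 114 to 487 lower. All 26 genes tested that are named against all other cells lost their call without the *Pdgfra-GFP* library, as did 14 named against *Kcnk2*-gated cells. Among the genes named by fold change and *Fabp5*, none changed direction where it could be tested, which was for 11 of 26 genes against depth-matched cells. Against *Kcnk2*-gated cells it was for 15 of 25 with depth matching, 19 with low *Cxcl12* and 22 without the *Pdgfra-GFP* library. It was for 24 of 25 with a gate of at least 5 UMIs and with doublets left out. Among 58 called values of genes described from the lists, 1 changed direction: *Fabp4* against cells with *Pdgfra* or *Pdgfrb* (-0.515, adjusted p = 0.229).

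The gated share was 0.0420%, 0.0499% and 0.388% after thinning to 2000 UMIs. In the *Pdgfra-GFP* library it was 0.907% at 5 or more gate UMIs and 1.66% with at least 1500 genes. The share of gated cells with *Fabp5*, 30%, 11.1% and 55.5% at 2000 UMIs, was 80.0%, 55.6% and 79.4% without thinning and 44.5% in the *Pdgfra-GFP* library at 1000 UMIs. The causes were not tested. With 9 and 10 gated cells, the metaphyseal libraries cannot show differences in transcripts present at 1 or 2 UMIs.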
